A study of Mus musculus with 32 samples.

Results

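The Kcnq1ot1 domain is a cluster of imprinted genes on mouse chromosome 7 that lies beside Dhcr7, and its expression was examined here in developing brain. The 10 domain genes, taken by symbol from all 4 deposited count tables, were Kcnq1, Kcnq1ot1, Cdkn1c, Phlda2, Slc22a18, Nap1l4, Osbpl5, Cd81, Tssc4 and Ascl2, out of 55291 symbols in each table. Messenger RNA had been sequenced from brains of C57BL/6J mice that were wild type (WT, Dhcr7+/+) or homozygous for loss of Dhcr7 (KO, Dhcr7-/-), the gene of the last enzyme of cholesterol synthesis. Loss of this enzyme underlies Smith-Lemli-Opitz syndrome in people. The 4 stages, of which 3 are embryonic and named by day, ran from E12.5 through E14.5 to E16.5 and then the day of birth (PND0), with 4 WT and 4 KO libraries at each, 32 in all. No treatment was given in the labels, and the construction of the KO allele was not given in the sources used here. The labels name no litter, animal or sex for a library, so p-values measure only the spread between these libraries.

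Genes of an imprinted domain are expressed unequally from the maternal and the paternal chromosome. In this domain the long noncoding RNA Kcnq1ot1 is made from the paternal chromosome only, where its promoter is free of the DNA methylation that the egg placed on the maternal copy. The RNA spreads in cis over its neighbours and recruits Polycomb and histone H3 lysine methylation, so that Cdkn1c, Phlda2 and Slc22a18 are expressed mainly from the maternal chromosome, whereas several outer genes are silenced mainly in placenta. Counts per gene pool both chromosomes, so allelic expression was not measured in these data.

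The promoter windows of 3 members are printed because Kcnq1ot1 starts at the imprint control region inside Kcnq1, and because Tssc4 and Osbpl5 moved in opposite directions through WT brain development. Each window spans 250 bases before to 50 bases after the annotated start, 5′ to 3′ on the gene's strand, from RefSeq (GRCm38.p6), which held windows for 7 of the 10 members. The Kcnq1ot1 window is chr7:143296498-143296797 on the minus strand, within an intron of Kcnq1. The Tssc4 window is chr7:143069118-143069417 on the plus strand and overlaps an exon of Trpm5 on the other strand. The Osbpl5 window is chr7:143756959-143757258 on the minus strand, the outermost of its 3 windows. Capitals mark CCAAT, the core of the box bound by the factor NF-Y, or its reverse complement ATTGG, and TGCCGC, the core recognised by the imprint keeper ZFP57, or its reverse complement GCGGCA.
Kcnq1ot1: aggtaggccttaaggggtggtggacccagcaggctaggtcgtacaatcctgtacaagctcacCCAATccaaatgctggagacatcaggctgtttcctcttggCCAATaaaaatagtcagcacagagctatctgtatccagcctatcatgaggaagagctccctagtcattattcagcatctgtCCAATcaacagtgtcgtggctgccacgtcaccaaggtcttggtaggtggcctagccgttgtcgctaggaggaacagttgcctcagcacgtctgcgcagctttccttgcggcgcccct
Tssc4: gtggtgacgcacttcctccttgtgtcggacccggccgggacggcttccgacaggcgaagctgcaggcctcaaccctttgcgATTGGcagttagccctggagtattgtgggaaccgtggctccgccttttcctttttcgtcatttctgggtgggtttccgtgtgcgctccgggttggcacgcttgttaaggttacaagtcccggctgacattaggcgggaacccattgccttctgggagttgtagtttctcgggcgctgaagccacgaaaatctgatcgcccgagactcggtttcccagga
Osbpl5: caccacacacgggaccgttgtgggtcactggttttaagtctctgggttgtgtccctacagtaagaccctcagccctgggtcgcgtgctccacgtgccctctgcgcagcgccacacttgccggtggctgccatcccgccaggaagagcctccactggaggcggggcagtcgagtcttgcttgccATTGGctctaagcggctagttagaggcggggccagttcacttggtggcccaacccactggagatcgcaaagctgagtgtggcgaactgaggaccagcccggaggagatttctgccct
The Kcnq1ot1 window held 3 CCAAT matches on both strands together, the Tssc4 window 1 and this Osbpl5 window 1. Of all 32851 windows of this length in the table, 37.4% held at least 1 CCAAT match and 3.37% at least 3. None of the 3 windows held TGCCGC, which occurred in 11.6% of all windows, among them another Osbpl5 window at chr7:143740311-143740610. The matches describe letters only, and CCAAT was chosen after the sequences were read. Sequence around the Kcnq1ot1 window was not searched, so whether TGCCGC occurs elsewhere in the imprint control region cannot be told from it.

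Library totals ran from 13868087 to 28318857 counts, so that 3 counts, the limit that a count of 0 allows, corresponded to 0.106 to 0.216 CPM, that is, counts scaled to a library of standard size. Such limits cover counting error only. CPM here are counts divided by the library total after TMM scaling over all 32 libraries. Neuronal markers were high in every library, which fits the labelled tissue. Their summed level was 2313 to 5963 CPM over 6 genes. Placental markers, which matter here because Phlda2 and Ascl2 are placental genes, summed to at most 1.51 CPM over 6 genes, with Tpbpa and Cts7 at 0 in every group. At E12.5 the libraries of a group differed more than at later stages. The 6 markers of meninges and mesenchyme, none of them at 0, summed to 3167, 2147, 1431 and 1937 CPM in WT libraries 1 to 4 and to 2340, 681, 751 and 2736 CPM in KO libraries 1 to 4, and a ribosomal RNA gene took 5.64% of the counts of KO library 1. The Cdkn1c KO effect at E12.5 is therefore given with and without WT library 1 and KO library 1. The first WT step of Cdkn1c and of Kcnq1ot1 is also given without WT library 1. For the other members such values are not printed.

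Dhcr7, the targeted gene, lies at chr7:143823145-143848410. Its WT means were 67.3, 70.0, 62.5 and 89.2 CPM from E12.5 to PND0, against 21.9, 13.2, 17.1 and 14.4 CPM in KO, and no KO library overlapped WT at any stage. The log2 fold change was -1.64, -2.40, -1.88 and -2.63, with adjusted p of 0.00824, 6.91e-29, 1.37e-09 and 5.6e-06 by edgeR's quasi-likelihood test with Benjamini-Hochberg adjustment, the test used for all adjusted p below. The E12.5 call was lost when KO library 2 (adjusted p 0.0625) or KO library 4 (0.0558) was left out, at a log2 fold change of -1.65 in both cases.

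No tested domain gene passed the test between KO and WT brain at any stage. Of the 10 members, 7 had enough counts to be tested at E12.5 and E14.5 and 8 at E16.5 and PND0. None passed an adjusted p of 0.05 at E12.5, where 0.0177% of all tested genes did, at E14.5 (0.527%), at E16.5 (0.0462%) or at PND0 (1.44%). The lowest adjusted p among members was 0.875, 0.421, 0.31 and 0.287 from E12.5 to PND0. At an unadjusted p under 0.05 there were 0, 2, 1 and 0 members, namely Kcnq1ot1 and Cdkn1c at E14.5 and Osbpl5 at E16.5. Over all tested genes, 796 of 16948 had such a p at E12.5, 1557 of 17837 at E14.5 and 2001 of 17328 at E16.5. These counts also stand beside those of the gene lists below at the same stages. No such count over all genes is given here for PND0 or for the fits of all 32 libraries. Counts at an unadjusted p there thus have no background beside them. DESeq2 likewise passed 0 members at all 4 stages. Among the tested members, the median log2 fold change was -0.06, 0.05, -0.05 and 0.12, beside a median of 0.00 over all tested genes at each stage.

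**Figure D1:**
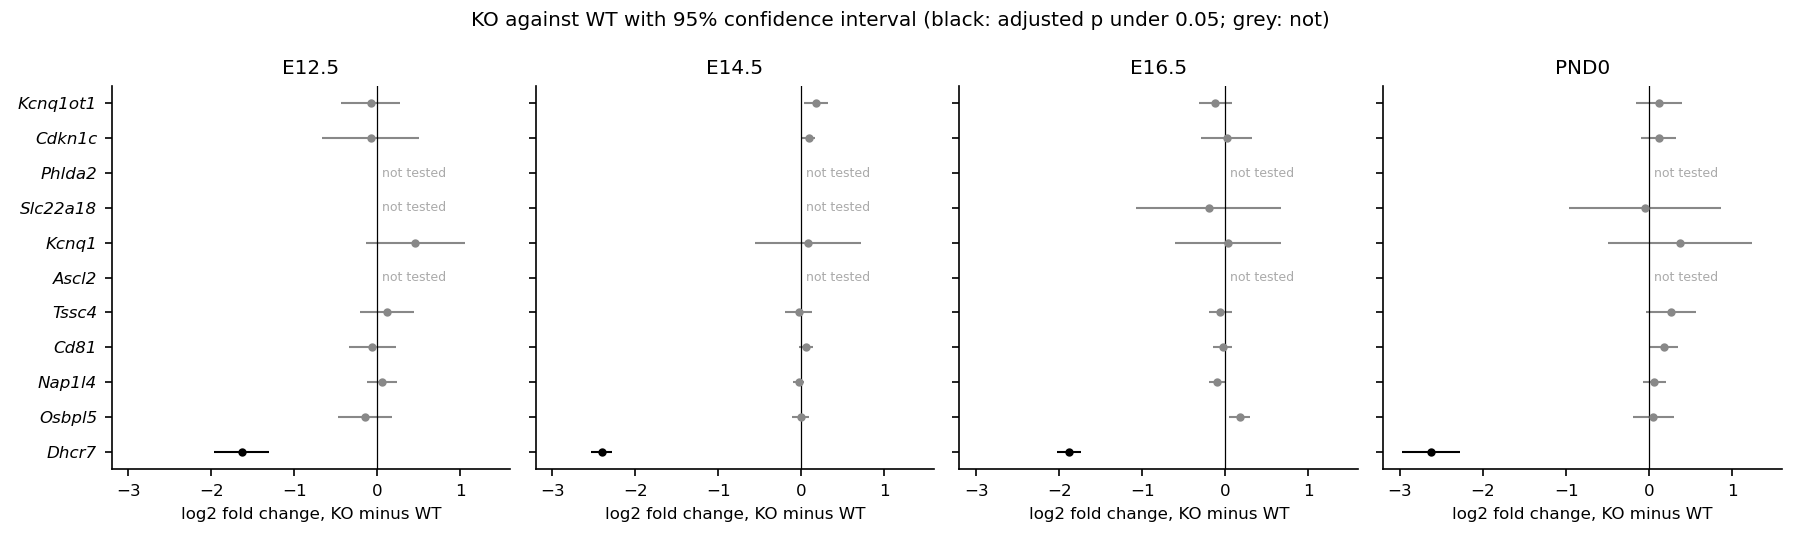
Log2 fold change of KO minus WT (horizontal axis) for each domain gene and for Dhcr7 at the 4 stages, with 95% confidence intervals, n = 4 libraries per group. Dhcr7 lies between -1.64 and -2.63, while the tested domain genes lie between -0.20 and 0.46 and none is past the threshold.

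Averaged over the 4 stages in a fit of all 32 libraries, 0 of the 8 members tested passed, beside 0.558% of all genes, and the lowest adjusted p among them was 0.539. In this average the 6 members with ample counts had narrow intervals. The 95% confidence intervals of log2 fold change were -0.10 to 0.16 for Kcnq1ot1, -0.14 to 0.22 for Cdkn1c, -0.05 to 0.06 for Nap1l4, -0.09 to 0.13 for Osbpl5, -0.04 to 0.13 for Cd81 and -0.05 to 0.20 for Tssc4. Kcnq1 and Slc22a18, which had few counts, had intervals of -0.08 to 0.56 and -1.085 to 0.13. A test of whether the KO effect changed with stage passed 0 of 8 members, beside 0.0256% of all genes, with a lowest adjusted p of 0.483. At an unadjusted p under 0.05 both of these fits passed 0 members, and DESeq2 passed 0 in both.

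Kcnq1ot1 itself (chr7:143203458-143296549, minus strand) is annotated as an unspliced antisense RNA of 93092 nucleotides inside Kcnq1. In WT brain its level was 31.5, 26.1, 20.95 and 26.9 CPM at E12.5, then 30.2, 32.7, 27.5 and 29.15 CPM at E14.5. It was 36.7, 40.2, 30.8 and 35.0 CPM at E16.5 and 31.6, 30.1, 39.3 and 33.1 CPM at PND0. The libraries of neighbouring stages overlapped throughout. The only step past the threshold was E16.5 against E14.5, with a log2 fold change of 0.27 (SE 0.08, adjusted p 0.00965), and PND0 was above E12.5 by 0.38 (SE 0.13, adjusted p 0.026). With an offset for transcript length per library both calls changed: the step from E14.5 to E16.5 turned to -0.57 (adjusted p 2.8e-05) and PND0 against E12.5 fell to 0.01 (adjusted p 0.949). The second call was also lost without PND0 WT library 3 (0.30, adjusted p 0.0754). The first had an adjusted p of 0.0754 when all 32 libraries were fitted together. Without E12.5 WT library 1, E14.5 against E12.5 passed at 0.26 (adjusted p 0.0278). The direction of the step from E14.5 to E16.5 thus differed between the fit with and the fit without the length offset. E14.5 against E12.5 was above 0 in every alternative, from 0.07 to 0.27. The offset is a curve fitted over transcript length, and how well it holds at 93092 nucleotides was not tested.

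KO brains had Kcnq1ot1 at 20.7, 26.45, 23.2 and 30.6 CPM at E12.5 and at 31.1, 31.0, 37.6 and 35.25 CPM at E14.5. The E14.5 values overlapped the upper part of the WT range. The fold change there was 0.17 on the log2 scale (SE 0.07, unadjusted p 0.0177, adjusted p 0.421). At E16.5 KO libraries lay between 28.3 and 37.2 CPM and at PND0 between 29.25 and 43.2 CPM, again overlapping WT, with log2 fold changes of -0.12 and 0.12. Reads of an antisense RNA can be told from those of its sense gene only by strand, and the strand setting of the counting was not given in the sources used here. Exons of other genes on the opposite strand, among them Kcnq1, cover 1.2% of Kcnq1ot1. All of Kcnq1ot1 lies within the Kcnq1 gene, however, so if strand was not used, reads from Kcnq1 introns could count as Kcnq1ot1 too. The 1.2% is therefore no upper limit of that uncertainty.

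Cdkn1c (chr7:143458339-143461050, minus strand), which encodes an inhibitor of cyclin-dependent kinases that promotes exit from the cell cycle, showed the widest change of the tested members in WT development. Its level was 398.5, 229, 202 and 272 CPM at E12.5 and 172, 168, 167 and 172.5 CPM at E14.5. It was 65.75, 92.1, 89.4 and 109.9 CPM at E16.5 and 68.0, 78.2, 76.4 and 59.2 CPM at PND0. Every library of E12.5 lay above every library of E14.5, and every library of E14.5 above both later stages, whereas E16.5 and PND0 overlapped. From E12.5 to PND0 the level was 3.83-fold lower (log2 fold change -1.94, SE 0.20, adjusted p 6.4e-06).

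The Cdkn1c decrease fell on all 3 steps, with log2 fold changes of -0.73 (SE 0.19, adjusted p 0.0112, but 0.051 with no filter on low counts) from E12.5 to E14.5, -0.91 (SE 0.13, adjusted p 0.000512) to E16.5 and -0.37 (SE 0.13, adjusted p 0.0344) to PND0. Without E12.5 WT library 1 the first step was -0.48, still past the threshold. The last step was weak. Its adjusted p was 0.0726, 0.0644 and 0.102 without E16.5 WT library 2, 3 or 4, and 0.0817 and 0.106 without PND0 WT library 1 or 4. It was 0.164 with the length offset, 0.0506 with a sex covariate and 0.143 in the fit of all libraries. Over the same stages the summed markers of neural progenitors went from a WT median of 2281 to 1742, 1261 and 904 CPM, and those of mesenchyme from 2042 to 698, 566.5 and 589 CPM. Their part in the Cdkn1c course was not tested. In whole brain, fewer cells of a type and less RNA per cell cannot be told apart.

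In KO brain Cdkn1c took the levels 393, 215, 229 and 217.5 CPM at E12.5 and 174, 168, 189.5 and 188 CPM at E14.5. It took 93.25, 87.7, 83.5 and 100.9 CPM at E16.5 and 73.7, 75.6, 85.2 and 71.5 CPM at PND0. KO overlapped WT at every stage. At E12.5 KO library 1, like WT library 1, stood far above the other libraries, and both had high mesenchyme markers, but KO library 4 had the highest KO sum of these markers with Cdkn1c at 217.5 CPM. Their part in these levels was not tested. The KO effect at E12.5 was -0.08 on the log2 scale (SE 0.26), and it was -0.11 (SE 0.10, adjusted p 0.881) without both library 1. It was -0.36 without KO library 1 alone and 0.16 without WT library 1 alone, with adjusted p of 0.569 and 1.0, so its sign changed with the libraries kept, and none of the 16 alternatives passed. At E14.5, where the WT libraries were closest together, the effect of 0.09 (SE 0.04) had an unadjusted p of 0.0258 and an adjusted p of 0.487. The gene shares 30.7% of its exon length with the antisense gene Gm44732, and the strand setting of the counting is unknown. Its counts are therefore uncertain, by an amount that this share of length does not measure.

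**Figure D2:**
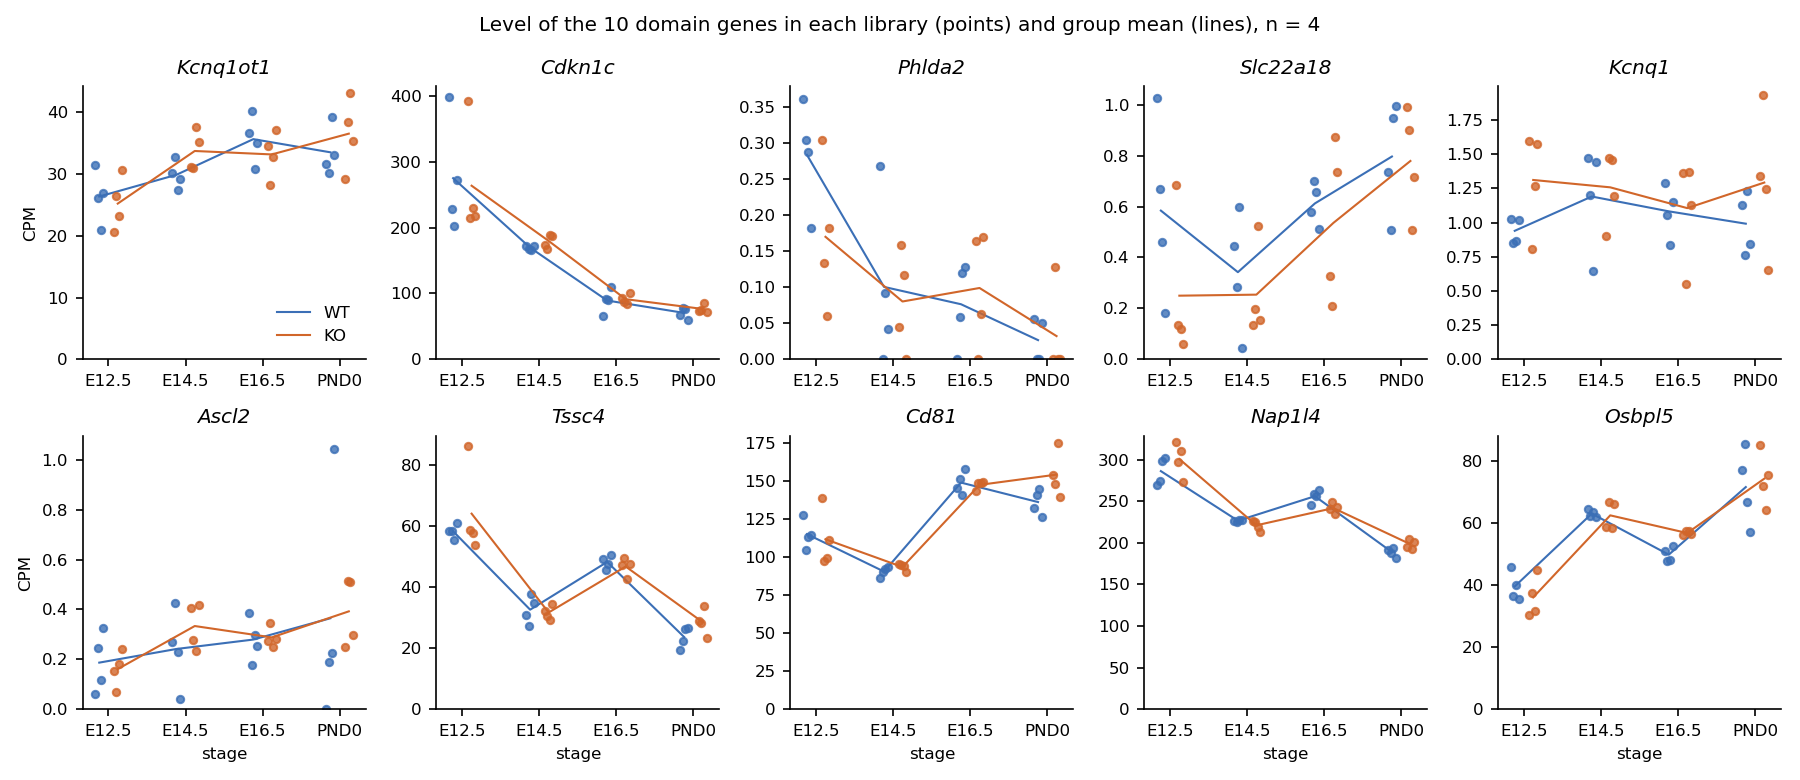
CPM (vertical axis, from 0) of each domain gene in every library by stage, WT in blue and KO in orange, with lines through the means of 4 libraries. WT and KO points of a stage overlap for every gene except Osbpl5 at E16.5, Cdkn1c falls from a WT mean of 275 to 70.5 CPM, and Phlda2, Slc22a18, Kcnq1 and Ascl2 stay under 2 CPM.

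Phlda2 and Slc22a18 were barely expressed. Phlda2 (chr7:143501545-143503150, minus strand), a pleckstrin homology protein that restrains placental growth, had at most 6 counts in any library and none in 9 of 32, and it was never tested. WT totals over 4 libraries were 21, 9, 5 and 2 counts from E12.5 to PND0, and KO totals were 10, 7, 7 and 2. With no filter on low counts, Phlda2 was lower at PND0 than at E12.5 in WT (adjusted p 0.0215), on these few counts. Slc22a18 (chr7:143473736-143499334, plus strand), a transporter of the organic cation family, had 1 to 20 counts per library. Its WT means were 0.58, 0.34, 0.61 and 0.80 CPM and its KO means 0.25, 0.25, 0.54 and 0.78 CPM. Neither its WT steps nor its KO effects passed. At E12.5 the counts were 17, 11, 8 and 5 in WT and 9, 2, 2 and 1 in KO, where the groups overlapped and the gene was under the count filter.

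Kcnq1 (chr7:143106362-143427042, plus strand), the pore subunit of a cardiac and epithelial potassium channel and the host of Kcnq1ot1, stayed near 1 CPM. WT means were 0.94, 1.19, 1.08 and 0.99 CPM, and KO means 1.31, 1.26, 1.11 and 1.29 CPM. With 8 to 37 counts per library, no WT step passed (adjusted p 0.375 to 0.755), and KO effects had intervals as wide as -0.49 to 1.24 at PND0. The KO libraries at E12.5 held 1.596, 0.81, 1.27 and 1.58 CPM against 1.02, 0.85, 0.86 and 1.02 CPM in WT, so the groups overlapped through KO library 2. Per kb of exon, the ratio of Kcnq1ot1 to Kcnq1 was 1.23 ± 0.14, 1.22 ± 0.47, 1.47 ± 0.21 and 1.52 ± 0.25 in WT from E12.5 to PND0 (SD, n = 4). In single WT libraries the ratio ran from 0.89 to 1.88. With the strand setting unknown, reads of the 2 genes may be mixed in it.

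Ascl2 (chr7:142966829-142969264, minus strand), a transcription factor of trophoblast and intestinal stem cells, had 0 to 21 counts per library and was never tested. Its WT mean was 0.19, 0.24, 0.28 and 0.36 CPM. The last rests on PND0 WT library 4, with 21 counts, where the other WT libraries of that stage had 0, 3 and 4. That library also stood apart for Dhcr7, at 60.02 CPM against 96.9 to 102.4, and for the neighbouring gene Cars, at 92.7 CPM against 58.4 to 60.1.

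Among the outer genes Tssc4 (chr7:143069249-143071093, plus strand), a chaperone of spliceosome assembly, changed direction at each WT step. Its level was 58.1, 58.4, 55.4 and 60.8 CPM at E12.5 and 30.9, 27.0, 37.5 and 34.6 CPM at E14.5. It was 49.1, 45.5, 47.4 and 50.5 CPM at E16.5 and 19.2, 22.3, 26.1 and 26.6 CPM at PND0. Libraries of successive stages did not overlap. The log2 fold changes were -0.87 (SE 0.09, adjusted p 4.23e-05), 0.59 (SE 0.09, adjusted p 3.93e-05) and -1.06 (SE 0.11, adjusted p 2.09e-06). From E12.5 to PND0 Tssc4 was 2.42-fold lower.

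KO brains followed the same Tssc4 course, with means of 63.9 ± 14.9, 31.6 ± 2.2, 46.6 ± 2.9 and 28.4 ± 4.2 CPM (SD, n = 4). KO library 1 at E12.5 held 86.0 CPM and the other 3 held 53.5 to 58.7. At PND0 the KO libraries held 28.7, 28.1, 33.6 and 23.3 CPM, of which 3 were above all WT libraries. The effect of 0.26 (SE 0.14) had an adjusted p of 0.342. Trpm5 on the opposite strand shares 11.9% of the Tssc4 exons.

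Osbpl5 (chr7:143688762-143756985, minus strand) encodes an oxysterol-binding-protein relative that moves lipids between membranes, and it is the member nearest to Dhcr7, at 66.2 kb. Its WT course ran opposite to that of Tssc4. The level was 45.8, 36.6, 40.05 and 35.6 CPM at E12.5 and 64.3, 62.1, 63.4 and 61.95 CPM at E14.5. It was 50.8, 47.55, 47.9 and 52.6 CPM at E16.5 and 77.0, 85.25, 66.8 and 56.9 CPM at PND0. Successive stages did not overlap. The log2 fold changes were 0.65 (SE 0.08), -0.32 (SE 0.06) and 0.49 (SE 0.11), with adjusted p of 0.000108, 0.000168 and 0.00128, and PND0 was 1.85-fold above E12.5.

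Osbpl5 at E16.5 was the only member whose KO and WT libraries did not overlap. KO libraries held 56.0, 57.3, 57.2 and 56.3 CPM, all above the WT maximum of 52.6. The difference of 0.17 on the log2 scale (SE 0.06, unadjusted p 0.00881, 95% confidence interval 0.05 to 0.30) did not pass (adjusted p 0.31). At that stage 6.39% of all tested genes had groups that did not overlap, so 1 of 8 members is not far from the background. No member was apart at E12.5, where 2.53% of genes were, at E14.5 (4.77%) or at PND0 (11.9%). At the other stages the Osbpl5 effect was -0.15 (SE 0.14), -0.01 (SE 0.05) and 0.05 (SE 0.12), all within overlapping groups.

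Cd81 (chr7:143052739-143067934, plus strand), a tetraspanin of the cell surface, moved in step with Tssc4 up to E16.5. WT means were 115 ± 9.5, 90.5 ± 3.2, 149 ± 7.4 and 136 ± 8.5 CPM (SD, n = 4). It fell by 0.37 on the log2 scale to E14.5 (SE 0.06, adjusted p 0.000582) and rose by 0.74 to E16.5 (SE 0.05, adjusted p 7.28e-09). The value of -0.16 to PND0 (SE 0.07) did not pass, with an adjusted p of 0.0609, though it did without PND0 WT library 3 (adjusted p 0.0404). PND0 exceeded E12.5 by 0.27 (SE 0.08, adjusted p 0.00882), which was lost with no filter on low counts (0.21, adjusted p 0.0536). At PND0 the KO libraries held 154, 148, 175 and 140 CPM and the WT libraries 132.5, 141.0, 145.1 and 126 CPM. The groups overlapped only through KO library 4, and the effect of 0.17 (SE 0.08) had an adjusted p of 0.287, the lowest of any member at any stage.

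Nap1l4 (chr7:143513579-143549106, minus strand), a histone chaperone, was among the best-measured members, with 2973 to 8321 counts per library. WT means were 286 ± 16.4, 227 ± 1.4, 256 ± 7.9 and 189 ± 5.2 CPM (SD, n = 4). Its steps of -0.36, 0.20 and -0.47 on the log2 scale (SE 0.04, 0.04 and 0.06) had adjusted p of 9.56e-05, 0.00133 and 1.8e-05, and PND0 was 1.48-fold below E12.5. KO means were 301 ± 20.5, 221 ± 6.0, 242 ± 5.8 and 198 ± 5.6 CPM. The KO libraries at E16.5 held 240.5, 249, 235 and 243 CPM against 245, 259, 257 and 263.5 CPM in WT. These groups overlapped at 1 library each, and the difference of -0.10 (SE 0.05) had an adjusted p of 0.443.

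**Figure D3:**
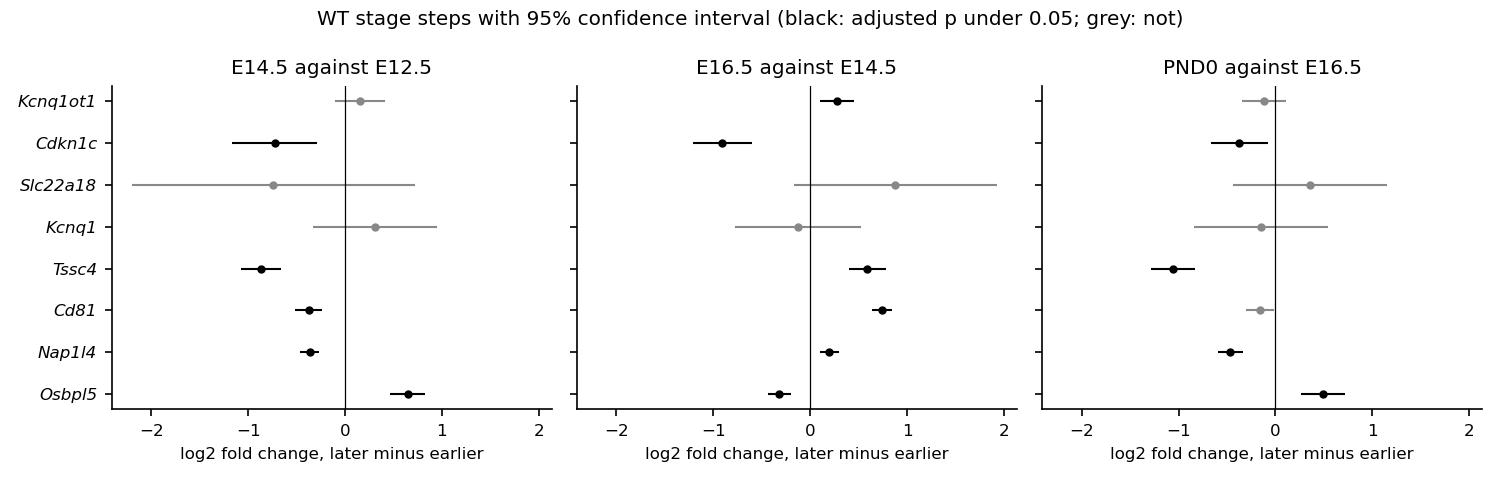
Log2 fold change of each WT stage step (later minus earlier, horizontal axis) with 95% confidence intervals for the 8 domain genes tested, n = 4 libraries per stage. Tssc4 and Nap1l4 fall, rise and fall, Osbpl5 rises, falls and rises, and Cdkn1c falls at each step.

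Counted over the domain, 5 of 8 tested members changed from E12.5 to E14.5, 1 up and 4 down, beside 27.3% of all genes up and 30.5% down. From E14.5 to E16.5 there were 4 up and 2 down of 8, beside 29.3% up and 28.2% down. From E16.5 to PND0 there were 1 up and 3 down, beside 26.0% up and 27.2% down. Over the whole interval from E12.5 to PND0 there were 3 up (Kcnq1ot1, Osbpl5 and Cd81) and 3 down (Cdkn1c, Tssc4 and Nap1l4), beside 34.5% up and 36.4% down. Most genes of the brain change over these days, and the share of members that changed was near that background. The alternation of Tssc4, Nap1l4 and Osbpl5 held with the length offset, where the Tssc4 steps were -0.76, 0.50 and -0.89 and the Osbpl5 steps 0.56, -0.23 and 0.38. Each stage came in a table of its own, so stage and any separate handling of the stages cannot be told apart.

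Levels between genes were compared per kb of annotated exon. Cdkn1c led at E12.5 with 135 ± 42.7 CPM per kb and at E14.5 with 83.2 ± 1.5 (SD, n = 4). Nap1l4 followed with 92.5 ± 5.3 and 73.25 ± 0.44, and the libraries of these 2 genes did not overlap at either stage. At E16.5 and PND0 Nap1l4 led with 82.8 ± 2.5 and 61.05 ± 1.7, followed by Cd81 with 51.75 ± 2.6 and 47.3 ± 3.0 and by Cdkn1c with 43.8 ± 8.9 and 34.55 ± 4.3, where Cd81 and Cdkn1c overlapped at E16.5 but not at PND0. Tssc4 and Osbpl5 came next, at 31.5 and 8.04 CPM per kb at E12.5, and at PND0, where their libraries overlapped, at 12.8 and 14.55. The remaining 5 genes lay below 0.5 CPM per kb at every stage, a group that held Kcnq1ot1, and most neighbours within that group overlapped. Kcnq1ot1 had 272 to 923 counts per library, and its value per kb divides them by all 93092 annotated nucleotides. How evenly reads covered that length was not tested.

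**Figure D4:**
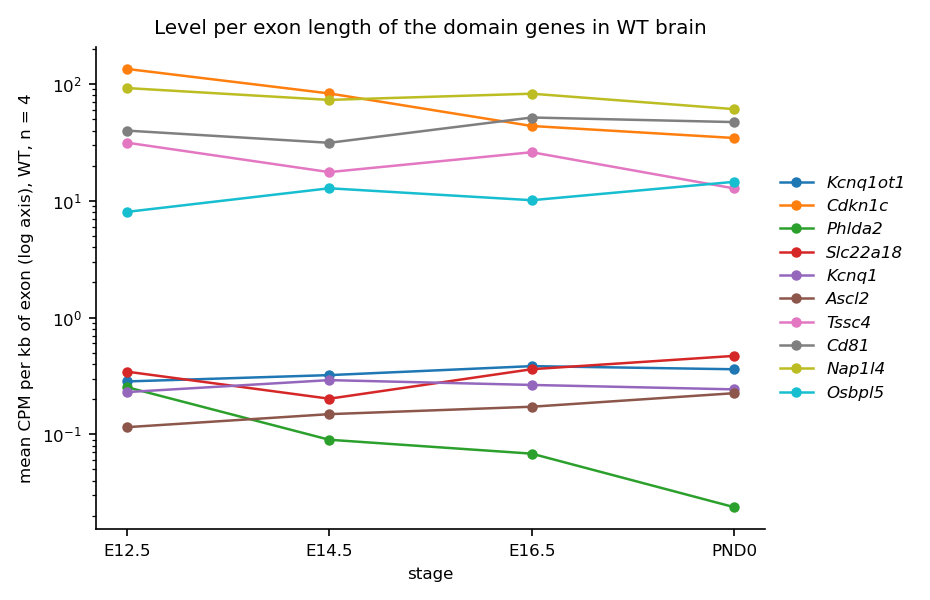
Mean CPM per kb of exon (vertical log axis) of the 10 domain genes by stage in WT brain, n = 4 libraries per point. The genes form an upper group from 8.04 to 135 and a lower group from 0.02 to 0.47, and Cdkn1c drops from the first to the third place.

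The per-kb ratio of Cdkn1c to Kcnq1ot1, the target and the silencing RNA, went from 470 ± 76.25 at E12.5 to 260 ± 18.7, 115.5 ± 27.8 and 96.8 ± 16.05 in WT (SD, n = 4). In KO it was 504 ± 248.5, 244 ± 10.65, 126 ± 10.7 and 96.8 ± 12.2, so the genotypes overlapped at each stage. The size of this ratio depends on the annotated length by which Kcnq1ot1 is divided. Against Cdkn1b, a relative outside the domain with the same function, Cdkn1c stood at 4.27 ± 1.93, 2.48 ± 0.10, 1.26 ± 0.30 and 1.37 ± 0.17 per kb in WT. Cdkn1b itself lay between 106.7 and 177.3 CPM in all WT libraries.

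Across the 16 WT libraries, the 5 genes whose log2 CPM was most like that of Cdkn1c among 16066 genes were Grb10 (r = 0.984), Ier2 (0.984), Zfp36l1 (0.9835), Yap1 (0.9835) and Fam122b (0.981). These are descriptions of libraries that share 4 stages. Grb10, another imprinted gene, whose product restrains growth, went from 721 to 356, 169 and 117 CPM in WT means. For Kcnq1ot1 the most alike were 3830406C13Rik (r = 0.857), B830017H08Rik (0.81), Cers5 (0.8015), Gm44997 (0.801) and Zfp85os (0.7995).

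Factors that place or keep imprints and silence chromatin were read beside the domain. Of 20 listed factors, among them Zfp57, Trim28, Dnmt1, Ehmt2 and the Polycomb genes, 18 were tested. In KO brain edgeR passed none at E12.5, E14.5 or E16.5, with 0, 1 and 4 factors at an unadjusted p under 0.05, and DESeq2 passed only Ehmt2, a histone H3 lysine methyltransferase gene, at E16.5. At PND0 edgeR passed only Dnmt3a, a de novo DNA methyltransferase, which was lower in KO by a log2 fold change of -0.56 (SE 0.09, adjusted p 0.0117). DESeq2 also passed only Dnmt3a at PND0. At an unadjusted p under 0.05 edgeR gave 5 of the 18 factors there, namely Cbx7, Dnmt3a, Ehmt2, Hnrnpk and Zfp57. The length offset left -0.37 and an adjusted p of 0.0792. The median log2 fold change of the tested factors at PND0 was 0.07, beside 0.00 over all genes. Averaged over the stages edgeR passed 0 of 18 (lowest adjusted p 0.0984, 4 at an unadjusted p under 0.05), whereas DESeq2 passed Cbx7, Dnmt3a and Ehmt2. For the change of the KO effect with stage edgeR also passed 0 of 18 (lowest adjusted p 0.0968, 3 at an unadjusted p under 0.05), whereas DESeq2 passed Dnmt3a and Hnrnpk. In WT, 13 of the 18 were lower and 4 higher at PND0 than at E12.5, beside 36.4% of all genes lower and 34.5% higher, with a median of -0.56 beside -0.05 over all genes. Over the same interval 5 of 6 progenitor markers were lower and 1 higher, with a median of -1.86, and their part in the values of these factors was not tested. Uhrf1, the partner of the maintenance methyltransferase, changed by -3.28 (SE 0.13, adjusted p 2.3e-08), and the Polycomb genes Ezh2 and Eed by -1.82 (SE 0.12, adjusted p 2.52e-07) and -1.56 (SE 0.10, adjusted p 2.22e-07).

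Of 16 listed cyclin-dependent kinase inhibitors and G1-phase partners, which act with or against Cdkn1c, 14 were tested at the embryonic stages and 15 at PND0. In KO neither edgeR nor DESeq2 passed any, with 0, 3, 4 and 3 genes at an unadjusted p under 0.05 from E12.5 to PND0. In WT, 12 of 15 were lower and 2 higher at PND0 than at E12.5, beside 36.4% of all genes lower and 34.5% higher, with a median of -1.22 beside -0.05 over all genes. The progenitor markers, with their median of -1.86, moved over the same interval, and their part in these values was not tested either. Ccnd1, Cdk4 and Ccnd2, the cyclins and kinase that drive entry into the cycle, had log2 fold changes of -2.59 (SE 0.13), -2.16 (SE 0.08) and -2.08 (SE 0.10), with adjusted p of 7.05e-08, 1.56e-08 and 4.1e-08. Cdkn1c, at -1.94, fell over the same interval.

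Genes around the members that are not members themselves were Th, Trpm5, Tspan32, Cars, Tnfrsf22, Tnfrsf23, Tnfrsf26 and Nadsyn1, of which Nadsyn1 lies 296 bases from Dhcr7. In KO neither edgeR nor DESeq2 passed any of the 7, 7, 6 and 6 tested from E12.5 to PND0. At an unadjusted p under 0.05 edgeR gave Cars at E12.5 and Tnfrsf22 at E16.5, beside 796 of 16948 and 2001 of 17328 tested genes. Over all tested genes, 2.53% and 6.39% had KO and WT libraries without overlap at these 2 stages. Cars, a tRNA synthetase gene, had KO libraries of 74.7, 63.45, 70.4 and 60.2 CPM at E12.5, all above the WT values of 51.7, 52.7, 53.1 and 59.7 (log2 fold change 0.29, SE 0.09, adjusted p 0.875). Tnfrsf22, a decoy receptor gene, had KO libraries of 5.96, 4.29, 5.49 and 4.41 CPM at E16.5, all above the WT values of 4.0, 3.33, 3.41 and 3.25 (log2 fold change 0.51, SE 0.16, adjusted p 0.302). On average over stages Cars had a log2 fold change of 0.12 (adjusted p 0.304), which passed without PND0 WT library 4 (0.17, adjusted p 0.0174).

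Nadsyn1, the nearest neighbour of Dhcr7 and a gene of NAD synthesis, had WT means of 10.8, 10.04, 7.87 and 6.56 CPM and KO means of 11.8, 11.4, 7.6 and 6.95 CPM. In WT, 7 neighbours were tested at PND0 against E12.5, where 34.5% of all genes were higher and 36.4% lower. Of these neighbours 2 were higher, Tnfrsf23 (log2 fold change 2.31, SE 0.24) and Cars (0.35, SE 0.14, adjusted p 0.0468). Another 2 were lower, Nadsyn1 (-0.69, SE 0.14) and Tnfrsf22 (-0.69, SE 0.24, adjusted p 0.0238). The Cars call was lost without any one of the 4 E12.5 WT libraries (adjusted p 0.0527 to 0.0942) or without PND0 WT library 4 (0.0607). The Tnfrsf22 call was lost without E12.5 WT library 1 (0.0524) or PND0 WT library 1 (0.0678) or 4 (0.0627). The remaining neighbours were low, with WT means of 6.26 to 8.745 CPM for Th, 2.61 to 4.07 for Trpm5, 0.34 to 1.10 for Tspan32 and 0.21 to 0.42 for Tnfrsf26.

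**Figure D5:**
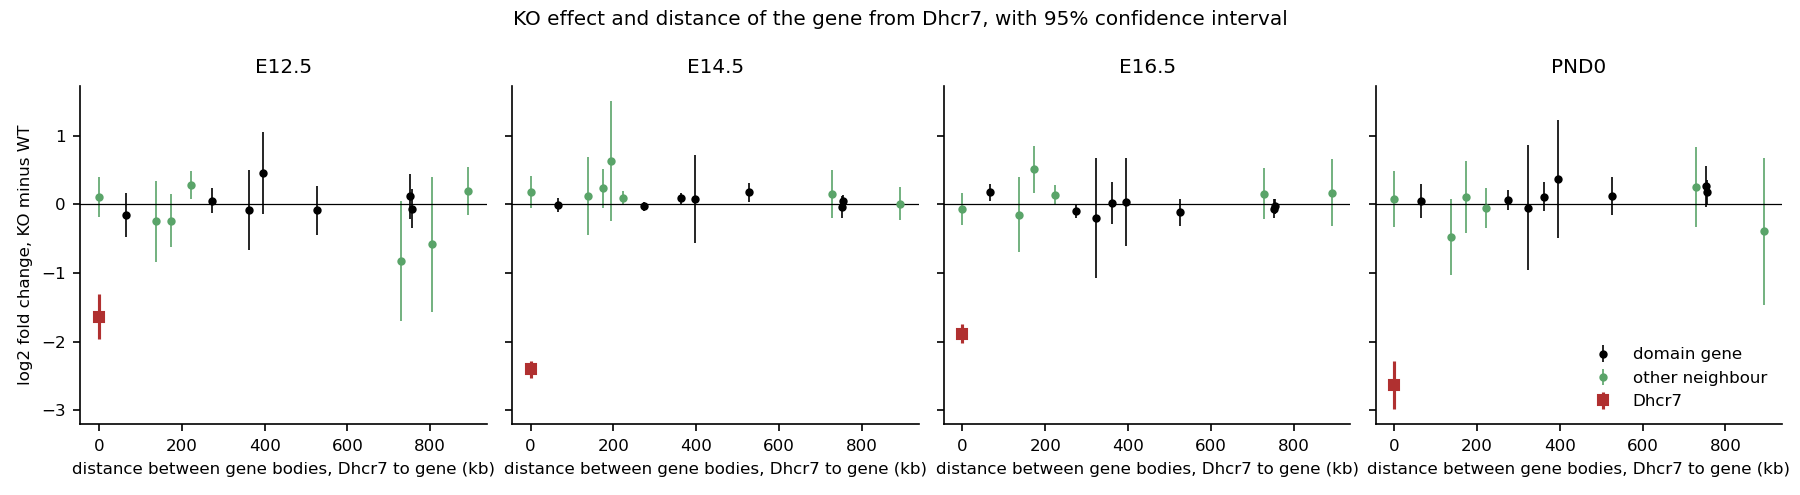
Log2 fold change of KO minus WT (vertical axis, with 95% confidence interval) against the distance between gene bodies from Dhcr7 in kb, for tested domain genes (black), other neighbours (green) and Dhcr7 (red square), n = 4 libraries per group. Dhcr7 lies at -1.64 or lower in each panel, and none of the other genes plotted is past the threshold at any distance from 0.296 to 892 kb.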

How the data were processed

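Whole brains, in 4 WT and 4 KO libraries per stage, were profiled by paired-end sequencing of polyA-enriched RNA, per the labels' protocols. The deposited values are raw counts per gene symbol, in a table for each stage. HISAT2, SAMtools, featureCounts, DESeq2 and genome build mm10 are named, without roles or versions, in the submitters' processing notes. The strand setting and annotation of the counting were not given in the sources used here. Library totals of 13868087 to 28318857 counts limit the precision, and so does the spread between the libraries of a group.

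Each comparison was fitted on all genes passing filterByExpr (minimum count 10, minimum total 15) with TMM scaling, edgeR's quasi-likelihood test and Benjamini-Hochberg adjustment, at an adjusted p of 0.05 (R 4.3.3, edgeR 4.0.16, limma 3.58.1). KO was compared with WT within each stage over its 8 libraries, WT stages over the 8 libraries of a pair, and the average and the change of the KO effect with stage over all 32. The KO fits within stages were tried on simulated data. Of genes given a log2 fold change of 0.5 in size, 7.58%, 72.7%, 56.1% and 42.4% passed from E12.5 to PND0. At a size of 1 the shares were 56.7%, 95.5%, 88.1% and 80.6%. A small KO effect at a single stage, above all at E12.5, could thus be missed. CPM in the text use TMM over all 32 libraries, and values per kb use the union of exons. Positions and overlaps are from GENCODE M21 (GRCm38, the same build as mm10). Alternatives were RLE scaling, no filter, DESeq2 1.42.0, a replicate block, a length offset per library (loess span 0.5), a sex-gene covariate, all libraries in 1 fit, and leaving out each library. An alternative's sign was compared only where it or the main value passed the threshold.

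The members and lists were chosen with earlier results of these data known. The text names the 10 members, Dhcr7, the neighbours, up to 3 genes of smallest p past the threshold per list and comparison, and, for Cdkn1c and Kcnq1ot1, the 5 genes most alike in log2 CPM (prior count 2) over WT libraries. Some genes that this rule selects are not reported here.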

Additional observations from a re-analysis of the deposited data

Results flagged for a closer look

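In 6 of 80 groups of 4 libraries, 1 library of a domain gene stood apart from the other 3, by a test that chance alone passes in about 1 of 20 groups. KO library 1 at E12.5 accounted for 3 of them. It held Cdkn1c at 393.2 CPM where the other KO libraries held 215.3 to 229.4, Tssc4 at 86.04 CPM where they held 53.52 to 58.68, and Slc22a18 at 0.684 CPM (9 counts) where they held 0.0606 to 0.134. This library also had the highest progenitor marker sum of E12.5, 2998 CPM, and 5.64% of its counts from a ribosomal RNA gene, and the part of these in the levels was not tested. At E14.5, KO library 3 held Slc22a18 at 0.5255 CPM (9 counts) and the others 0.135 to 0.199. At PND0, KO library 2 held Phlda2 at 0.1287 CPM, which is 2 counts, and the others none. At E16.5, Cd81 was lowest in KO library 1, at 143.5 CPM beside 148.6 to 149.1 CPM.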

How the results depend on the processing

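No domain gene passed between KO and WT under any alternative run, including each library left out, whereas the number of genes passing over the whole table moved widely. At E12.5 it was 3, and 30 with DESeq2, 6 with the replicate block and 52 with all 32 libraries in 1 fit. At E14.5 it was 94, and 146 with no filter and 4 with all libraries. At E16.5 it was 8, and 233 with no filter, 150 with DESeq2, 5 with the block, 4 with the sex-gene covariate and 3 with all libraries. At PND0 it was 250, and 1091 with no filter, 921 with DESeq2, 44 with the length offset and 1205 with all libraries. Averaged over stages it was 109, and 72 with no filter and 355 with DESeq2. For the change with stage it was 5, and 11 with no filter, 346 with DESeq2, 1 with the block and 8 with the length offset. In alternatives chosen after seeing the data, leaving out E12.5 WT library 1 and KO library 1 together gave 222 genes on average and 770 for the change with stage, and leaving out E12.5 gave 232 on average. With single libraries left out the ranges were 1 to 5, 52 to 155, 3 to 14 and 35 to 263 genes by stage, 63 to 256 on average and 0 to 797 for the change with stage, with 0 members in each. In WT they were 9397 to 11020, 9421 to 10189 and 8255 to 9398 genes for the 3 steps and 11872 to 12660 for PND0 against E12.5, with 5 to 6, 6, 3 to 5 and 5 to 6 members. Of the WT member results, 460 kept their side of the threshold, with direction compared only where a value passed, 13 lost the call and 2 gained it. Values that did not pass could change sign, such as Kcnq1ot1 at PND0 against E16.5, which ran from -0.20 to 0.19. Among the calls, Kcnq1ot1 at E16.5 against E14.5 turned to -0.57 with the length offset. The cause was not tested. At E12.5 the deviations of same-numbered WT and KO libraries correlated at 0.358, -0.148, 0.379 and -0.176 for numbers 1 to 4. There 2 KO libraries correlated best with the WT library of their own number, and 0, 0 and 1 did at the later stages. Whether the numbers pair libraries cannot be told from these values. The replicate block changed no member call. Kcnq1, Slc22a18, Phlda2 and Ascl2 are limited by depth.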

Other observations

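Relatives of the domain genes elsewhere in the genome were also read. Of 18 listed paralogs, 16 or 17 were tested in KO at each stage. Neither edgeR nor DESeq2 passed any, with 0, 2, 3 and 4 genes at an unadjusted p under 0.05 from E12.5 to PND0. In WT, 9 of 16 were higher and 4 lower at PND0 than at E12.5, beside 34.5% of all genes higher and 36.4% lower, with a median log2 fold change of 0.33 beside -0.05 over all genes. The neuronal histone chaperone gene Nap1l3 rose by 2.05 (SE 0.14, adjusted p 4e-07) where Nap1l4 fell by 0.57, and Osbpl6 rose by 1.202 (SE 0.08, adjusted p 2.71e-07).

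Channel relatives and partners of Kcnq1 formed another list. In WT, 4 of 6 tested were higher and none lower at PND0 than at E12.5, beside 34.5% of all genes higher and 36.4% lower, with a median log2 fold change of 1.48 beside -0.05. Among them were the neuronal channel genes Kcnq5 (log2 fold change 3.05, SE 0.27) and Kcnq3 (1.89, SE 0.19). In KO edgeR passed none of the 7, 6 and 6 tested at E12.5, E14.5 and E16.5, with 0, 1 and 2 at an unadjusted p under 0.05, and DESeq2 passed none at these stages. The KO result of this list at PND0 is not reported here, so the list as a whole cannot be read as unchanged in KO.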
